A study of Arabidopsis thaliana with 3 samples.

Results

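The plant cuticle is a layer of waxes and cutin that epidermal cells make and lay down on their outer wall. Its precursors are fatty acids activated to CoA esters, lengthened in the endoplasmic reticulum by an elongase complex, turned into alkanes, alcohols and esters (waxes) or into hydroxylated acyl glycerols (cutin), and exported by ABC transporters. Described here are 39 Arabidopsis thaliana genes of wax and cutin synthesis, export and regulation, out of 25383 loci with a matched probe. They were chosen by locus from gene families of known role, with the Cy5 over Cy3 ratios of these arrays already known, so those ratios are given as a description and no test is made on them. All 39 had a probe, 69 in total. In the fe-1 comparison 36 passed the filter on dim probes, and on the dexamethasone array 35 did.

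The study hybridised RNA of whole seedlings on day 7 to 3 two-colour arrays. On 2 of them, RNA of the mutant fe-1 in Cy5 was set against RNA of wild type (Ler accession) in Cy3, each array being a biological replicate, with untreated seedlings sampled at zeitgeber time 15 h. The third held 35S::FE-GR (#5) seedlings submerged for 2 h in 1 µM dexamethasone (Dex), in Cy5, and mock-treated seedlings of that line, in Cy3, at zeitgeber time 14 h. The labels do not say what the mock treatment held. All seedlings grew under long days at 22 °C with 1% sucrose. FE, listed as APL (AT1G79430), encodes a Myb-type regulator of phloem identity. FE-GR joins it to the hormone-binding domain of the glucocorticoid receptor, which holds a fusion protein outside the nucleus until Dex is given. The 35S promoter drives expression in most cell types, and 1 line was used. No line without FE-GR was given Dex on these arrays, so effects of Dex itself and of FE-GR cannot be told apart.

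Ratios and signals are log2 values except where given as folds. Ratios have fe-1 or Dex on top, and ± is the SD of 2 arrays. Signals said to overlap are compared across the arrays, which sets aside the pairing of fe-1 and wild type on each array. Such overlap is a description, and the ratio on each array is the comparison. With a single Dex array, its values carry neither an error nor a test. On it, a gene is counted as lower or higher when it differed by at least 1.5-fold. Lower with Dex means lower than mock. The array held no untreated seedlings of that line, and its signals were not scaled with those of the fe-1 arrays. A fall with Dex and a rise with mock therefore cannot be told apart. Between 72.1% and 74.8% of gene spots in Cy5 and between 75.1% and 78.1% in Cy3 were well above background, and the number of arrays limits the precision. The fe-1 lesion is not described in the labels, so the ratio of FE itself, -0.17 ± 0.031, checks neither genotype nor labels. Both fe-1 arrays lay on the same slide and the Dex array on another. No dyes were swapped, so a dye bias of a probe would enter all its ratios in the same direction. Such a bias cannot be told apart from genotype or treatment, and p-values do not account for it.

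The wax and cutin genes read mostly below 0 on the Dex array and close to 0 in fe-1. With Dex, 33 of the 35 kept genes had a ratio below 0, and their median was -0.54, which is 1.45-fold lower. Over all 20494 genes kept on that array, 49.3% were below 0, and the median was 0.005. At least 1.5-fold lower were 15 of the 35, against 8.07% of all genes, and 0 were at least 1.5-fold higher, against 6.95% of all genes. At least 2-fold lower were 10 of the 35, against 2.95% of all genes. By role, the median with Dex was -0.60 for acyl activation, -0.52 for elongation, -0.62 for wax products, -0.44 for cutin, -0.67 for export and -0.48 for regulators. In fe-1 the median of the 36 kept genes was 0.02, against -0.01 over all 20680 genes tested, and none of the 36 reached 1.5-fold. In RNA of whole seedlings, fewer cells of a type and less RNA per cell cannot be told apart.

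**Figure D1:**
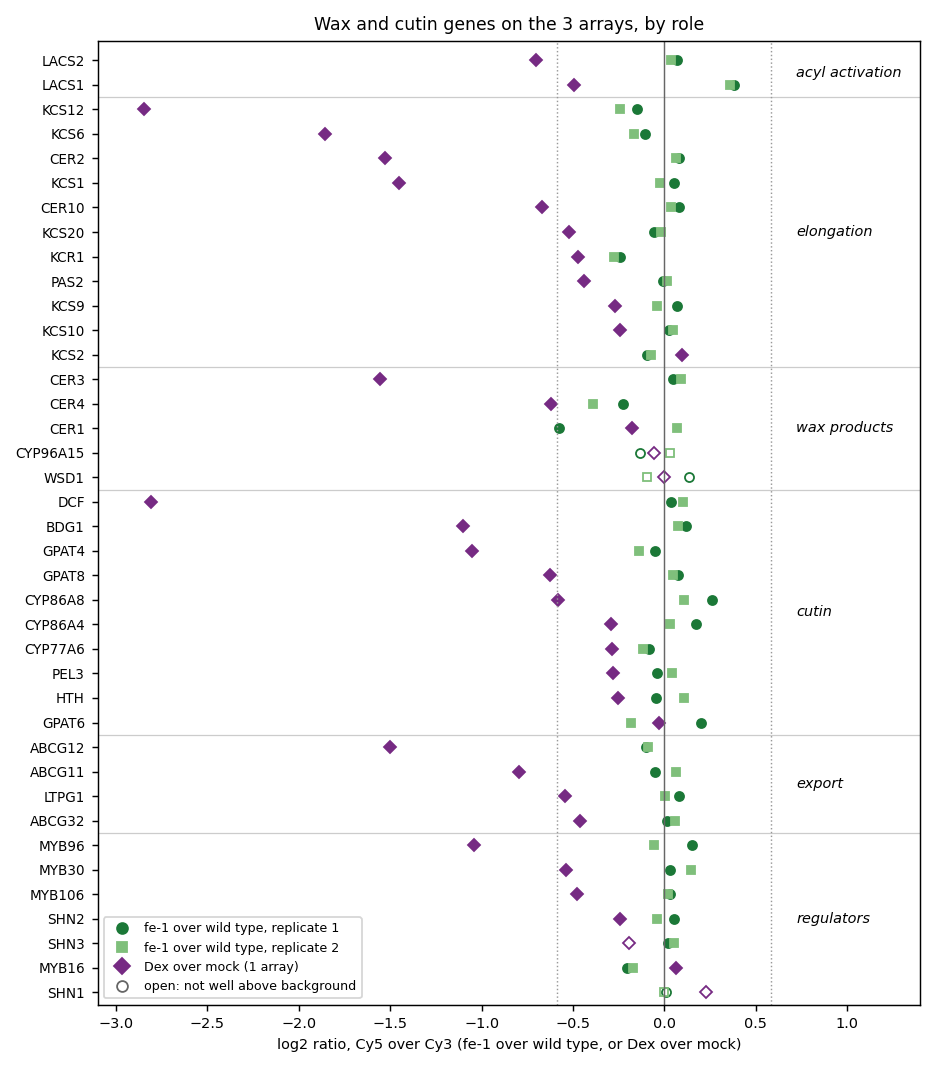
Log2 ratio (x axis) of each of the 39 wax and cutin genes (y axis, grouped by role) on the fe-1 arrays (circles, replicate 1, and squares, replicate 2) and on the Dex array (diamonds), with open symbols for genes not well above background and dotted lines at 1.5-fold. The diamonds run from -2.84 to 0.10 among kept genes, while the means of the fe-1 arrays lie between -0.31 and 0.37.

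Acyl activation is the first step, in which long-chain acyl-CoA synthetases join a fatty acid to CoA. LACS2 (AT1G49430), which serves cutin synthesis, had a log2 signal of 10.53 with Dex, against 11.23 with mock. In fe-1 it was 10.85 and 10.77 (replicates 1 and 2), against 10.78 and 10.74 in wild type. LACS2 was thus lower with Dex (-0.71, 1.63-fold) and nearly level in fe-1 (0.05 ± 0.023). LACS1 (AT2G47240, also CER8), which acts in wax and cutin synthesis, read -0.50 with Dex. In fe-1 LACS1 was higher on both arrays, with signals of 10.21 and 10.20, against 9.83 and 9.85 in wild type, a mean ratio of 0.37 ± 0.016. Its other probes read 0.16 and 0.15 in fe-1.

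Elongation held the genes with the widest range. The elongase adds carbon units in a cycle that starts with a 3-ketoacyl-CoA synthase (KCS), whose isoforms set the chain lengths made. KCS12 (AT2G28630) was the lowest of all members on the Dex array, with a log2 signal of 7.37 with Dex, against 10.22 with mock. That is a ratio of -2.84, or 7.18-fold lower. In fe-1 its signals were 9.08 and 9.22, against 9.23 and 9.47 in wild type. The groups lay close together, with fe-1 lower on both arrays (-0.20 ± 0.067).

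KCS6 (AT1G68530, also CER6 and CUT1), the main wax-producing KCS of the shoot, had a signal of 12.30 with Dex, against 14.16 with mock. It was 3.62-fold lower on that array (-1.85). In fe-1 it was 12.56 and 12.21, against 12.67 and 12.38 in wild type (-0.14 ± 0.042). The ratio was below 0 on both arrays, while the signals of the groups overlapped. The 6 probes of KCS6 read between -1.90 and -1.70 with Dex. Each was below 0 on both fe-1 arrays, with means between -0.24 and -0.09.

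KCS1 (AT1G01120), a KCS of broad expression, had a signal of 12.24 with Dex, against 13.70 with mock, or 2.74-fold lower (-1.45). In fe-1 it had 12.82 and 13.07, against 12.77 and 13.09 in wild type, so the groups overlapped (0.01 ± 0.056). CER2 (AT4G24510), which works with KCS6 in making the longest wax precursors, had 10.35 with Dex, against 11.88 with mock, or 2.89-fold lower (-1.53). In fe-1 CER2 had 10.17 and 10.13, against 10.09 and 10.07 in wild type, slightly higher on both arrays (0.07 ± 0.013).

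The other KCS members had smaller ratios. KCS20 (AT5G43760) read -0.52, KCS9 (AT2G16280) -0.27 and KCS10 (AT2G26250, FIDDLEHEAD, needed to keep organs from fusing) -0.25 with Dex. KCS2 (AT1G04220), which acts together with KCS20 in wax and suberin synthesis, had 7.87 with Dex, against 7.77 with mock (0.10), and its second probe read -0.02. KCS2 and KCS20 have related sequences, and cross-hybridisation was not tested. In fe-1 these 4 genes read between -0.09 and 0.04.

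The remaining 3 enzymes of the cycle are shared by all chain lengths, and their ratios with Dex were smaller than those of KCS12, KCS6 and KCS1. The enoyl reductase gene CER10 (AT3G55360) read -0.67 with Dex, or 1.59-fold lower, while its second probe read -0.53. The ketoacyl reductase gene KCR1 (AT1G67730) read -0.47 and the dehydratase gene PAS2 (AT5G10480) -0.44. In fe-1 KCR1 was lower on both arrays (-0.24 and -0.28, mean -0.26 ± 0.023), while PAS2 was level (0.00 ± 0.014). CER10 read 0.06 ± 0.033 in fe-1, from another probe than with Dex. The probe used with Dex read -0.08 on both fe-1 arrays. KCR1 lies on the chromosome of FE, with 1009 tested genes between them. Of 11 elongation genes, 5 were at least 1.5-fold lower with Dex, against 8.07% of all genes, and 0 were higher, against 6.95%.

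**Figure D2:**
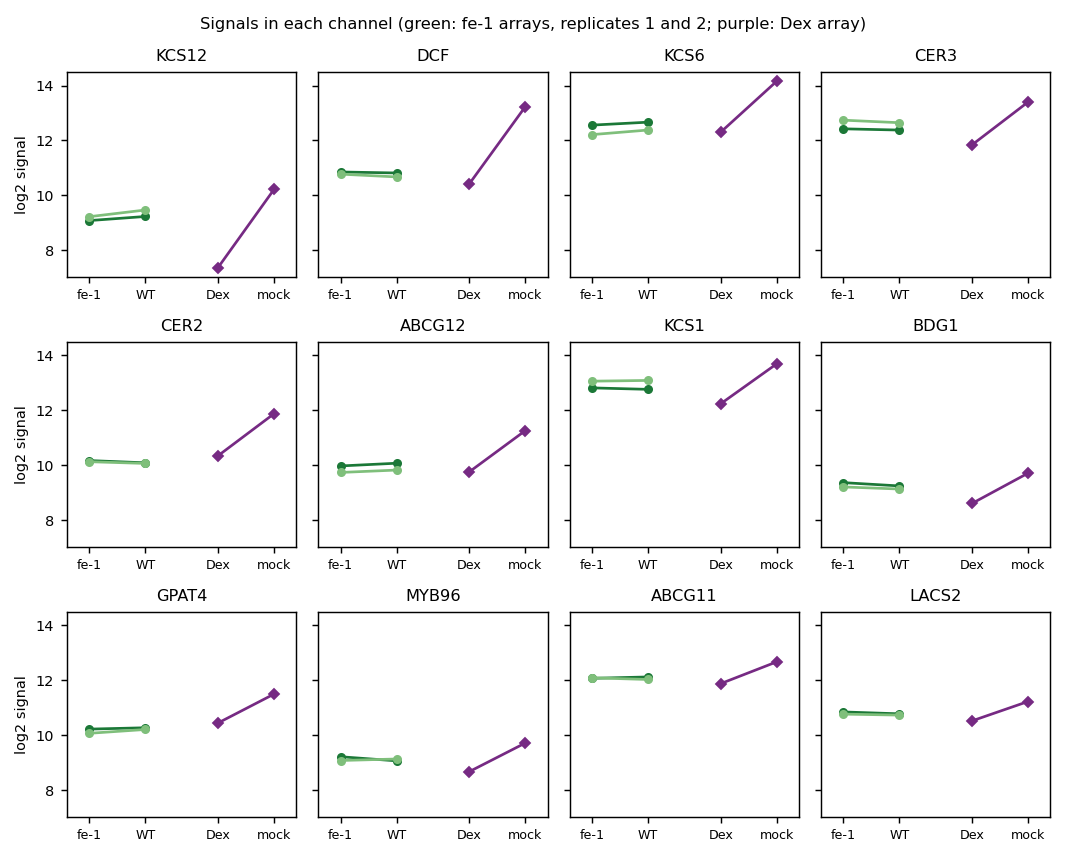
Log2 signal (y axis) in each channel for the 12 members with the largest ratios. Green lines join fe-1 to wild type on replicates 1 (dark) and 2 (light), and purple lines join Dex to mock. The purple lines all climb towards mock, most for KCS12 and DCF, and the green lines are nearly flat.

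Wax products are made from the lengthened chains along an alkane branch and an alcohol branch. In the alkane branch, CER3 (AT5G57800) and CER1 (AT1G02205) act as partners, yet their ratios with Dex were unlike. CER3 had a signal of 11.84 with Dex, against 13.40 with mock, or 2.94-fold lower (-1.56). CER1 had 11.41 with Dex, against 11.59 with mock (-0.18), and its second probe read 0.02. In fe-1 CER3 had 12.42 and 12.74, against 12.38 and 12.65 in wild type, so the groups overlapped (0.07 ± 0.033). CER1 had the largest spread of any member between the fe-1 arrays, -0.58 on replicate 1 and 0.07 on replicate 2, and its second probe differed likewise (-0.28 and 0.16).

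In the alcohol branch, the reductase gene CER4 (AT4G33790) read -0.62 with Dex, or 1.54-fold lower. In fe-1 CER4 was lower on both arrays, with 6.54 and 6.47, against 6.76 and 6.86 in wild type (-0.31 ± 0.12), the lowest mean of all members. CER4 was dim, and with the scanner's processed signals it read -2.17 on the Dex array and -0.52 in fe-1. CYP96A15 (AT1G57750, MAH1), which turns alkanes into secondary alcohols and ketones, and the wax ester synthase gene WSD1 (AT5G37300) were not well above background in any channel of the 3 arrays. Their unfiltered ratios with Dex were -0.06 and 0.00, and no fold is given for them.

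Among the cutin genes, all 10 read below 0 with Dex, against 49.3% of all genes, and 4 were at least 1.5-fold lower, against 8.07%. With median centring GPAT6, PEL3 and HTH read above 0. The median of all genes was then 0.22, and of these only GPAT6 lay above it. DCF (AT3G48720), whose enzyme adds ferulate to cutin, had a signal of 10.42 with Dex, against 13.23 with mock. It was 7.01-fold lower (-2.81). In fe-1 it had 10.85 and 10.77, against 10.82 and 10.67 in wild type, and the groups overlapped (0.07 ± 0.047). DCF and KCS12 stood apart from the other members on the Dex array, and each is read by a single probe.

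BDG1 (AT1G64670, BODYGUARD), an epidermal hydrolase-fold protein needed for a normal cuticle, had 8.61 with Dex, against 9.71 with mock (2.15-fold lower, -1.10). In fe-1 BDG1 had 9.37 and 9.21, against 9.25 and 9.14 in wild type (0.10 ± 0.031). Those signals overlapped.

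The acyltransferase genes GPAT4 (AT1G01610) and GPAT8 (AT4G00400), which act redundantly in cutin synthesis, read -1.05 and -0.62 with Dex, both over 1.5-fold lower. GPAT4 had 10.45 with Dex, against 11.50 with mock. In fe-1 GPAT4 had 10.23 and 10.07, against 10.27 and 10.21 in wild type, overlapping (-0.09 ± 0.064). The 3 probes of GPAT8 read between -0.62 and -0.42 with Dex, and cross-hybridisation between these related genes was not tested. GPAT6 (AT2G38110), a relative known for flower cutin, was level with Dex at -0.03, and its second probe read 0.03. The 3 acyltransferase genes thus ran from level to about the 2-fold limit on this array.

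The fatty acid hydroxylase genes read lower by less. CYP86A8 (AT2G45970, LACERATA) read -0.58, 1.498-fold, just short of the 1.5-fold limit that CER4 passed at 1.54-fold. CYP86A4 (AT1G01600) read -0.29 and CYP77A6 (AT3G10570) -0.29. PEL3 (AT5G23940, also DCR), an acyltransferase, read -0.28, and HTH (AT1G72970, HOTHEAD), an oxidoreductase needed to keep organs separate, read -0.25. In fe-1 the brightest probes of the 10 cutin genes lay between -0.10 and 0.18, the highest being CYP86A8 (0.26 and 0.11 on replicates 1 and 2). The second probe of CYP77A6, also well above background, read lower in fe-1, at -0.26 (-0.23 and -0.29 on replicates 1 and 2).

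Export genes all read below 0 with Dex, against 49.3% of all genes. ABCG12 (AT1G51500, CER5), a wax exporter of the plasma membrane, had 9.76 with Dex, against 11.27 with mock, or 2.83-fold lower (-1.50). In fe-1 ABCG12 had 9.98 and 9.74, against 10.08 and 9.83 in wild type, a small ratio (-0.09 ± 0.0088) with overlapping signals. Its partner ABCG11 (AT1G17840) had 11.88 with Dex, against 12.68 with mock, or 1.73-fold lower (-0.79), but its other 3 probes read between -0.46 and -0.33. In fe-1 ABCG11 had 12.08 and 12.09, against 12.13 and 12.03 in wild type, and its arrays differed in sign (0.01 ± 0.079). The lipid transfer protein gene LTPG1 (AT1G27950) read -0.54, and ABCG32 (AT2G26910), an exporter of cutin precursors, read -0.46. In fe-1 the 4 export genes lay between -0.09 and 0.04.

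Among the regulators, MYB96 (AT5G62470), an activator of wax genes under drought, was the lowest with Dex, with 8.68 against 9.72 with mock (2.06-fold lower, -1.04). In fe-1 MYB96 had 9.22 and 9.08, against 9.07 and 9.14 in wild type, so its arrays differed in sign (0.05 ± 0.14). MYB30 (AT3G28910), an activator of elongation genes in defence, read -0.54 with Dex, and MYB106 (AT3G01140), a MIXTA-like factor of the epidermis, read -0.48. The probes of each gave like values, -0.58 and -0.54 for MYB30 and -0.48 for both of MYB106. MYB16 (AT5G15310), which acts alongside MYB106, was above 0 with Dex (0.06), as was KCS2, and in fe-1 it was lower on both arrays (-0.21 and -0.17).

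The SHINE genes encode ERF-type factors that activate cutin and wax genes. SHN2 (AT5G11190) read -0.24 with Dex and 0.01 ± 0.064 in fe-1. SHN3 (AT5G25390) was well above background on the fe-1 arrays only (0.03 ± 0.023), and its unfiltered ratio with Dex was -0.20. SHN1 (AT1G15360) was not well above background in any channel, with an unfiltered ratio of 0.23 with Dex. Signals near background were thus all that the arrays gave for SHN1, CYP96A15 and WSD1.

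**Figure D3:**
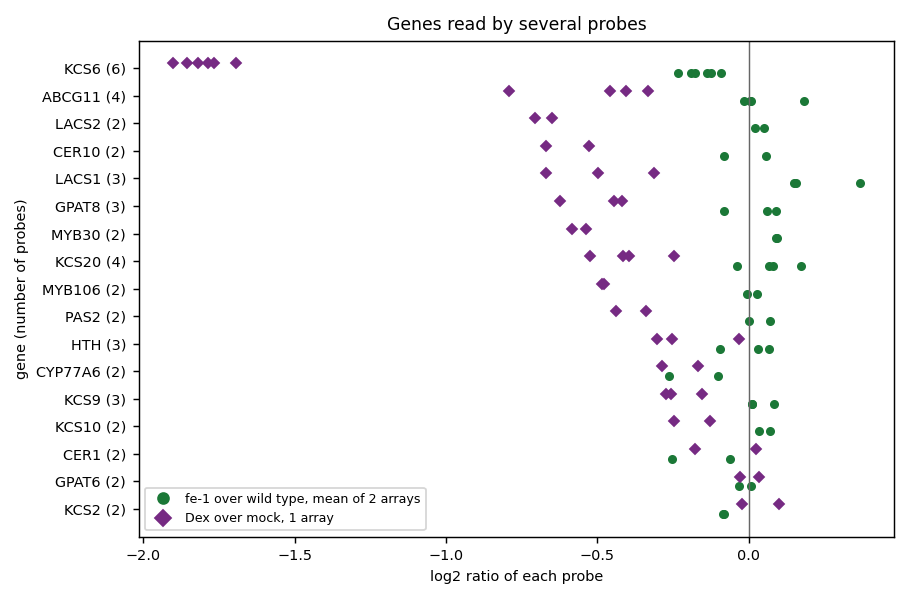
Log2 ratio (x axis) of every kept probe for the 17 members read by more than 1 probe (y axis, number of probes in brackets), with Dex over mock as diamonds and the mean of the fe-1 arrays as circles. All probes of a gene fell on the same side of 0 with Dex for 14 of the 17, with KCS6 the lowest, while CER1, KCS2 and GPAT6 straddle 0.

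Probes of the same gene mostly gave like ratios on the Dex array. The median range between probes of the 17 genes was 0.12, the widest was 0.46 (ABCG11), and 14 genes had all probes on 1 side of 0. Among genes counted as at least 1.5-fold lower, all probes of LACS2 and KCS6 passed that limit. For CER10, GPAT8 and ABCG11 the other probes fell short of it, and the remaining genes so counted have a single probe. In fe-1, where ratios were small, 7 of the 17 genes had probes on both sides of 0, namely ABCG11, HTH, GPAT6, MYB106, CER10, GPAT8 and KCS20. Their probes read between -0.09 and 0.18.

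In fe-1, 1 member passed the threshold of the fit across all genes as higher, against 8.90% of all genes, and 4 as lower, against 11.4% of all genes. The higher one was LACS1, and the lower ones were KCR1, CER4, KCS12 and MYB16. In either direction 5 of 36 were called, beside 20.3% of all genes, and nothing is read from this count, since the members were chosen with these ratios known. KCR1, KCS12 and MYB16 were called under 2 of 7 alternatives to the processing and LACS1 and CER4 under 4 of 7, and the direction of all 5 held under every alternative. Over all genes the fit called 1841 higher and 2348 lower, while with the scanner's processed signals it called 139 higher and 411 lower. Across the 36 members the ratios of the replicate arrays had r = 0.50, against 0.79 across all genes, as a description, and genes are not independent replicates. The labels call the replicates biological without saying how they were grown apart, so p-values measure how far these samples varied and no more. On simulated data the fit's share of false calls was above its threshold, so the share among the calls here and below may also exceed it. Genes said below to rise or fall in fe-1 are such calls.

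The ratios of the 2 comparisons did not run together over the members. Across the 35 genes kept in both, r was 0.03 and rho -0.22, as a description with the arrays' dye orientation shared. The 12 members with the largest ratios, each at or below -0.71 with Dex, lay between -0.20 and 0.10 in fe-1. RNA of fe-1 and of Dex-treated seedlings was in Cy5 on every array, so each probe was read in the same dye orientation in both comparisons.

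The other genes of the cuticle pathway were also listed, 41 in all. Of 38 kept with Dex, 26 were below 0, against 49.3% of all genes. At least 1.5-fold lower were 9, against 8.07% of all genes. At least 1.5-fold higher were 2, against 6.95% of all genes. With median centring 4 were at least 1.5-fold lower. The median of the 38 was -0.19. The lowest were KCS3 (-1.94), the cutin hydroxylase gene CYP86A2 (-1.70), KCS19 (-1.51) and AT5G41900 (-1.31), followed by KCS8 (-0.72), KCS5 (-0.70), AT3G23840 (CER26-LIKE, -0.69), LTPG2 (-0.67) and DEWAX (AT5G61590, a repressor of wax genes, -0.65). KCS4 (0.82) and AT2G33510 (1.11) were higher. Within the KCS family as a whole, 7 of 18 kept genes were at least 1.5-fold lower with Dex, against 8.07% of all genes. KCS4 alone was higher, against 6.95% of all genes. Among the lower ones, KCS1, KCS6 and KCS12 are members, chosen with these ratios known.

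In fe-1, 2 of those 38 genes rose, 2 fell and 34 did not pass, against 8.90% and 11.4% of all genes. This list and those below were chosen with earlier results of these data known. Their counts and adjusted p-values are therefore given as a description. LTPG2 (AT3G43720), a relative of LTPG1, rose by 0.28 ± 0.041 (limma adjusted p = 0.00785, higher on both arrays), and AT5G33370 rose by 0.20 ± 0.081 (limma adjusted p = 0.0366). AT4G24140 fell by 0.25 ± 0.16 (limma adjusted p = 0.0314) and WRI4 (AT1G79700), an AP2-type activator of wax synthesis, by 0.18 ± 0.061 (limma adjusted p = 0.0457). WRI4 lies on the chromosome of FE and close to it by locus number, and the part of that region in its ratio was not tested. LTPG2 was still called under 4 of 7 alternatives, AT4G24140 under 3, AT5G33370 under 1 and WRI4 under 0.

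Suberin is a related polyester of the root endodermis and periderm, built by enzymes of the same families. Of 18 suberin genes tested in fe-1, 0 rose, against 8.90% of all genes, and 6 fell, against 11.4%, with a median of -0.13. The feruloyl and caffeoyl transferase genes RWP1 (ASFT, AT5G41040) and FACT (AT5G63560) fell by 0.29 ± 0.092 (limma adjusted p = 0.00995) and 0.36 ± 0.022 (limma adjusted p = 0.00277). The fatty acyl reductase genes FAR5 and FAR1 fell by 0.32 ± 0.095 and 0.29 ± 0.20, and ESB1, a gene of the Casparian strip, by 0.27 ± 0.027. Each of these 5 calls was lost under 3 to 5 of the 7 alternatives. The 10 cutin genes, many of them from the same enzyme families, had a median of 0.05 in fe-1, though the difference between the lists was not tested. Root hair markers fell in fe-1 as well, namely SHV2 (-1.31), RHS19 (-1.25), EXPA7 (-1.05) and EXPA18 (-0.86), with a summed signal of 1210 and 1040 in fe-1, against 2500 and 2340 in wild type, and their part in the suberin result was not tested. With Dex, 5 of 17 suberin genes were at least 1.5-fold lower (ABCG20 -1.39, FAR1 -0.93, MYB92 -0.90, ABCG6 -0.88 and ABCG2 -0.60), against 8.07% of all genes, and 0 were higher, against 6.95% of all genes.

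**Figure D4:**
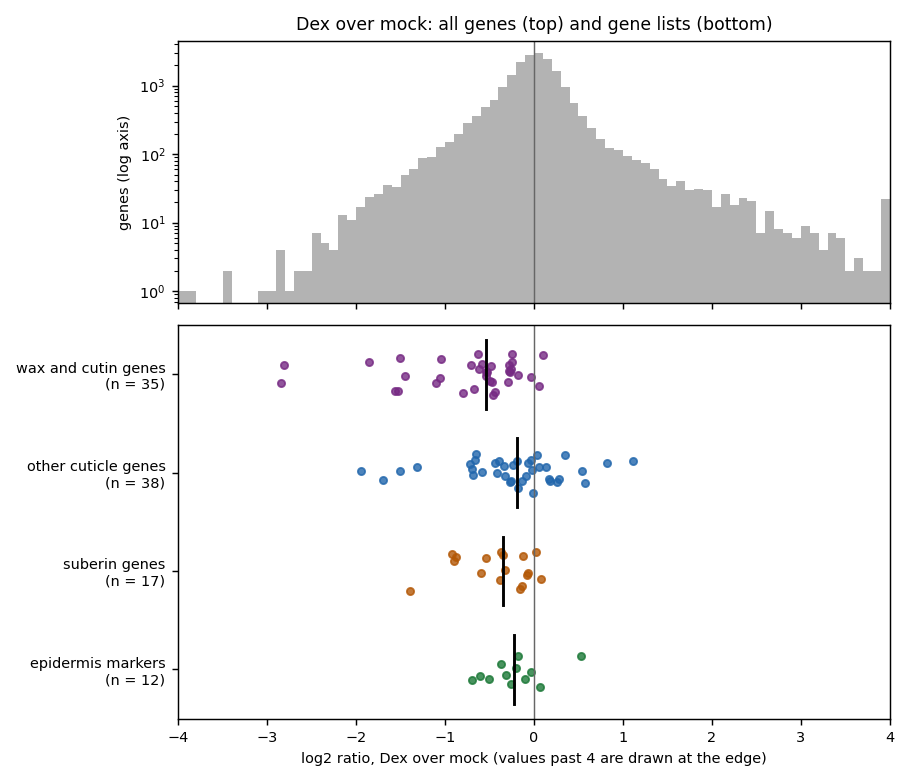
Log2 ratio of Dex over mock (x axis) for all genes (top, number of genes on a log axis) and for each kept gene of 4 lists (bottom, black bars are medians). The wax and cutin genes have a median of -0.54, the other cuticle genes -0.19, the suberin genes -0.35 and the epidermis markers -0.23.

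Genes listed as markers of the epidermis, which makes the cuticle, also read mostly below 0 with Dex, by less than the members. Whether each of these genes is particular to that cell layer was not tested. Of 12 kept out of 13, 10 were below 0, against 49.3% of all genes. At least 1.5-fold lower were 2, HDG1 (-0.69) and HDG2 (-0.61), against 8.07% of all genes, while GSO1 was above 0 (0.52). Their median was -0.23 and their summed signal was 84200 with Dex, against 93300 with mock. ATML1 and PDF1, defining genes of the outer cell layer, read -0.51 and -0.20, and 0 of the 12 lacked a signal well above background with either treatment. The part of the epidermis in the lower wax and cutin ratios was not tested. In fe-1, 2 of the 12 markers rose, PDF2 (0.19) and LP1 (0.19), against 8.90% of all genes. The receptor kinase genes CR4 (-0.18), GSO1 (-0.23) and GSO2 (-0.26) were the 3 that fell, against 11.4%. The median of the 12 was 0.04. Their summed signal was 96300 and 92100 in fe-1, against 86000 and 81500 in wild type.

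Markers of other cell types also differed between groups, and their part in the members' ratios was not tested. With Dex, the 4 mesophyll markers lay between 0.43 and 0.66, the 3 guard cell markers between -0.41 and 0.16, the 3 xylem markers between -0.42 and -0.09 and the 4 root hair markers between -0.31 and 0.36. Of the 4 phloem markers, SUC2 read 3.20 and the others between -0.26 and 0.17. In fe-1, all 4 mesophyll and all 3 guard cell markers rose, against 8.90% of all genes. Of the phloem markers 2 of 4 fell, SEOa (-0.48) and FE itself, listed as APL (-0.17), and of the xylem markers 2 of 3, XCP1 (-0.34) and CESA4 (-0.26), against 11.4% of all genes. The mesophyll markers' summed signal was 972000 and 950000 in fe-1, against 672000 and 665000 in wild type, and 1100000 with Dex, against 726000 with mock.

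**Figure D5:**
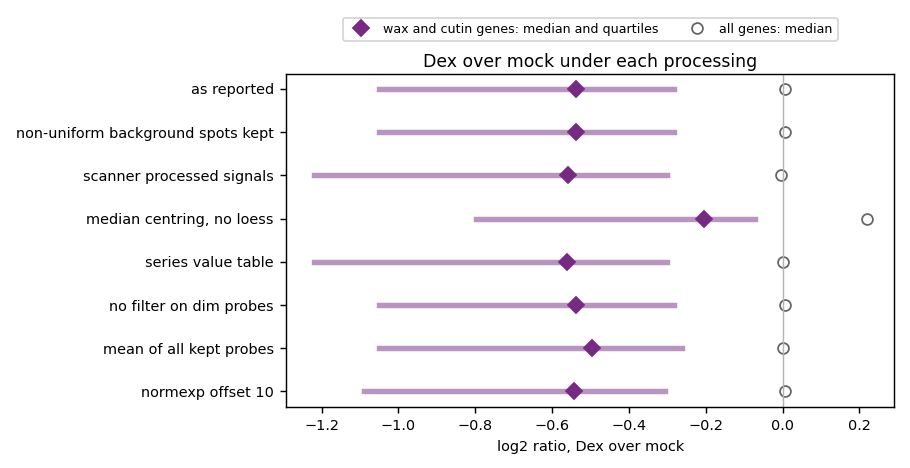
Log2 ratio of Dex over mock (x axis) of the 35 kept wax and cutin genes under each way of processing (y axis): diamonds are medians, bars are quartiles and open circles are the median of all genes. The members' median lies 0.42 to 0.56 below that of all genes in each.

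Relative to the median of all genes, the members' median lay at -0.54 as reported and between -0.56 and -0.42 under the 7 alternatives, with 33 of 35 members below that median each time. Those above it were KCS2 and MYB16, except that GPAT6 took the place of KCS2 with median centring. Centring without loess moved the median of all genes to 0.22 and that of the members to -0.20. In that setting 13 members were at least 1.5-fold below the median of all genes, against 11.7% of all genes. Of the 15 members at least 1.5-fold lower as reported, 11 stayed so under all 7 alternatives, and all 15 stayed below 0. The 4 exceptions at the 1.5-fold limit were LACS2, CER10, GPAT8 and ABCG11. Of all 35 members, 27 were below 0 under every alternative. The others were KCS2 and MYB16, above 0 throughout, and KCS9, KCS10, CER1, GPAT6, PEL3 and HTH, above 0 under at least 1 alternative.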

How the data were processed

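Each array's deposited scanner file gives raw spot intensity in both dyes and comes from Agilent's Feature Extraction software, version 10.7.3.1, per the file headers. Also deposited are signals that this software corrected for background and dye, with the log10 of red (Cy5) over green (Cy3) computed from them. The deposited series value table holds log2 ratios that differed from the scanner's converted ratios by at most 0.005, with a median of 0 per array, which settles scale, centring and direction. Labelled cRNA came from 0.1 µg of total RNA, per the labels.

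From the median spot and local background signals, background was corrected with normexp (offset 50) and ratios were normalized by loess within each array, in limma 3.58.1 under R 4.3.3. Control and outlier spots had weight 0. Spots with a non-uniform local background (32 gene spots, all on fe-1 replicate 1) were left out first, because with them the fitted background mean was -1128 in Cy5 instead of -10.8. The offset shrinks ratios of dim genes. Of 43603 probes, 34285 matched a locus through RefSeq accessions (assembly TAIR10.1). Probes had to be well above background in 2 or more of the 4 fe-1 and wild-type channels, or in 1 channel of the Dex array. The brightest such probe stands for its gene. Channel signals are after loess and, for fe-1, Aquantile scaling. Fits used lmFit and eBayes on 2 arrays (1 residual and 6.54 prior degrees of freedom) and p-values adjusted by Benjamini and Hochberg's method across 20680 genes, called under 0.05. When the fit was tested on simulated data, its share of false calls was above that threshold. No spot was saturated.

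The members and lists were chosen with earlier results of these data known. All members are named. Channel signals are given for the 12 members with the largest ratios and for some others chosen after their values were seen. From the other cuticle and suberin lists, the 5 largest called changes each way in fe-1 and all genes at least 1.5-fold different with Dex are named. Markers of cell types are given by name or by range. No sequences or promoter motifs are reported, as the sequence tables needed were not used here.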

Additional observations from a re-analysis of the deposited data

How the results depend on the processing

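The counts of calls in fe-1 depended strongly on the processing. As reported, limma called 4189 genes (1841 higher, 2348 lower), 5 members (1 higher, 4 lower), 4 other cuticle genes and 6 suberin genes. With the non-uniform background spots kept, it called 59 genes (10 higher, 49 lower) and 0 members, 0 other cuticle and 0 suberin genes (3, 2 and 4 at an unadjusted p under 0.05), and the median of member log2 ratios, fe-1 over WT, was -0.0543. With the scanner's processed signals it called 550 genes (139 higher, 411 lower) and 0, 0 and 0 of the lists (7, 9 and 8 unadjusted). From the series value table limma called 0 genes, higher or lower (6035 unadjusted), with 0 members, 0 other cuticle and 0 suberin genes (5, 8 and 6 unadjusted). Median centring without loess called 1494 genes lower, 3 members (2 lower) and 2 other cuticle genes. An offset of 10 called 1839 genes (701 higher, 1138 lower), 2 members (1 lower), 1 other cuticle gene and 3 suberin genes. The mean of all kept probes called 2 other cuticle genes. The count of genes at least 1.5-fold lower, Dex over mock, was 2593 from the scanner's processed signals and 2593 from the deposited table, instead of 1654. Median centring there gave a median of 0.219 over all genes and -0.204 over members, with 4 other cuticle genes at least 1.5-fold lower instead of 9. Without replicate 1 or 2 the members' median was 0.026 or 0.0291 and that of all genes -0.0081 or -0.00908. Single arrays allow no test, and a block for the slide was not possible, as both fe-1 arrays share it. The fit was already paired, as it tested the ratio of fe-1 to wild type on each array against 0, and no further pairing was possible. The causes of these differences were not tested beyond the fitted background mean. Over the 7 alternatives, the 10 called other cuticle and suberin genes lost their call 43 times, and the 5 called members were called 2 to 4 times each. None of these 15 genes called in fe-1 reversed its direction there under these alternatives. On the Dex array, KCS9, KCS10, CER1, GPAT6, PEL3 and HTH, all below 0 as reported, read above 0 with median centring. CER4 was the dim gene whose ratio with Dex moved furthest, from -0.62 to -2.17.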
